A study of Mus musculus with 6 samples.

Results

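Mast cells and basophils are sparse granulocytes of allergic and antiparasitic immunity, and 9 of the genes by which they are known were followed here, of 27998 genes in the table. They are Cpa3, Mcpt8, Cma1, Tpsb2, Prss34, Ms4a2, Fcer1a, Fcer1g and Hdc, taken as a named list and not chosen by a threshold on their values. Their transcripts were counted in single cells of iGMPs, mouse granulocyte-macrophage progenitors from Lys-GFP bone marrow of strain C57BI/6 as labelled, which keep dividing because a HOXA9 protein joined to an estrogen receptor domain (Hoxa9::ER) stays active in estradiol. All groups carry this fusion and a lysozyme-driven GFP reporter, and all were grown with stem cell factor (SCF), the ligand of Kit, which also supports mast cells. The CAF-1 OFF arm is a clone with an IPTG-inducible shRNA directed at Chaf1b, which encodes part of the CAF-1 chromatin assembly complex. It was sampled at 0 h in 150 ng/ml estradiol, and after 48 and 96 h with 500 µM IPTG and estradiol still present. The HOXA9 OFF arm is a control shRNA clone, sampled at 0 h in 150 ng/ml estradiol and 48 and 96 h after estradiol was washed out. Each of these 6 groups is 1 library, and the arms are different single clones, so that clone, library and treatment cannot be told apart and no test between groups was possible. Intervals below are 95% and cover counting error only.

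Both cell types store proteases, histamine and proteoglycan in granules and release them when antigen joins IgE molecules on the high-affinity IgE receptor. That receptor is built from an IgE-binding alpha chain, a signal-amplifying beta chain and a gamma chain that many other immune receptors also use. In bone marrow the lineages branch from granulocyte-monocyte progenitors under GATA2, and Cpa3 is made early in both. Among the 9 genes, Cpa3 encodes mast cell carboxypeptidase A, Cma1 a mast cell chymase, and Tpsb2 a mast cell tryptase. Mcpt8 and Prss34 encode serine proteases typical of mouse basophils. Fcer1a, Ms4a2 and Fcer1g encode the alpha, beta and gamma chains of the IgE receptor, and Hdc encodes histidine decarboxylase, which makes histamine.

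In the GRCm38.p6 annotation Cpa3 (NCBI gene 12873) lies on chromosome 3 from 20215616 to 20242209. Mcpt8 (17231) spans 56082163 to 56085499 on chromosome 14, 137487 bases beyond Cma1 (17228, 55941451 to 55944675) in the same cluster of granule protease genes. Tpsb2 (17229, 25366308 to 25368096) and Prss34 (328780, 25298394 to 25300168) lie 66139 bases apart on chromosome 17. Ms4a2 (14126) is at 11615517 to 11623790 on chromosome 19 and Hdc (15186) at 126593659 to 126624025 on chromosome 2. Fcer1a (14125, 173221269 to 173227232) and Fcer1g (14127, 171229572 to 171234349) are both on chromosome 1. RefSeq promoter sequence was at hand for 8 of the 9 genes. The 250 bases before the start are shown for the pair that climbed in CAF-1 OFF cells, Cpa3 at chr3:20242182-20242431 and Mcpt8 at chr14:56085198-56085447. They are also shown for a pair whose transcripts were gathered in few cells, Cma1 at chr14:55944676-55944925 and Ms4a2 at chr19:11623720-11623969. The start is the one RefSeq's promoter table uses. For Mcpt8 it lies inside the gene span given above, so that the whole window does too, as do parts of the Cpa3 and Ms4a2 windows. All 4 are given 5′ to 3′ on the minus strand, with capitals marking GATA on either strand (GATA or TATC), the core letters that GATA factors recognise.
Cpa3: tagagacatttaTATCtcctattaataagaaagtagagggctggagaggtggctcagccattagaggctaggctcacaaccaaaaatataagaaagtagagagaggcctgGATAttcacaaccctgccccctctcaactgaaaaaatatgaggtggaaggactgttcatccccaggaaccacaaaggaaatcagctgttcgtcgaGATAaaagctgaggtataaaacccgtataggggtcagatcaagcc
Mcpt8: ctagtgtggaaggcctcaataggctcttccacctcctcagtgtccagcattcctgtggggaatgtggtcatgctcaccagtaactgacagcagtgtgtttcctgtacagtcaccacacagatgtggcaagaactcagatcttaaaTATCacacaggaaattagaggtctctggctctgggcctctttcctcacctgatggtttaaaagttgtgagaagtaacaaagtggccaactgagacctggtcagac
Cma1: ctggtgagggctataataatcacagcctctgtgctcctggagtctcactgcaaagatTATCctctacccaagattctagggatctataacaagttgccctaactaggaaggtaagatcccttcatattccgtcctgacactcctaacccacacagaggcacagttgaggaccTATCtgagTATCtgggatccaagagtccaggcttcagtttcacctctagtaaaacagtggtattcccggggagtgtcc
Ms4a2: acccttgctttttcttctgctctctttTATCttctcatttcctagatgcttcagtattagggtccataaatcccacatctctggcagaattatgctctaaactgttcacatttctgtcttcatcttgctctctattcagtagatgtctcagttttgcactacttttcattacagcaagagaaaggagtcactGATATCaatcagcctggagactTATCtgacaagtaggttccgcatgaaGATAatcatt
Cpa3 and Cma1 held 3 matches each, Mcpt8 held 1, and Ms4a2 held 5, where the overlapping letters GATATC count as a pair. Of 32851 promoter windows of this length, 53.62% held at least 1 match, 9.616% at least 3 and 1.199% at least 5. The matches describe letters in a window and were not tied to binding.

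The libraries kept 473 to 1510 cells each, 5872 in all, with 3524285 to 5589486 UMIs (transcript molecules counted once each by a molecular identifier) per library. Median depth per cell was 5956 to 6571 UMIs over the CAF-1 OFF libraries and dropped over the HOXA9 OFF libraries from 8660 to 3535.5 and 2043.5 UMIs. Levels below are UMIs per 1000000 UMIs of the library (CPM). The targeted gene, Chaf1b, measured 35.6, 3.22 and 6.49 CPM over the CAF-1 OFF course and 51.5, 15.3 and 1.13 CPM over the HOXA9 OFF course. Progenitor markers were present at 0 h as the label of the cells implies, at a summed 1074 and 1007 CPM. All 5 of 5 were detected in every library. Their sum was 890 CPM in CAF-1 OFF at 96 h, but 85.7 and 36.6 CPM in HOXA9 OFF at 48 and 96 h. The 7 genes not of blood summed to at most 3.89 CPM. The mast cell label held only in part. Of 7 mast cell markers, 2 to 4 had a UMI in any library, and Tpsab1, Mcpt4 and Mrgprb2 were at 0 UMIs in all 6. Kept cells of different libraries shared 16 barcode sequences, which covers 32 cells.

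Cpa3 climbed at both later times in CAF-1 OFF cells. Its level there was 209 CPM (interval 195 to 223) uninduced, 1035 CPM (1008 to 1062) after 48 h and 2813 CPM (2768 to 2858) after 96 h. The HOXA9 OFF libraries held 491 CPM (470 to 513) before washout, 384 CPM (368 to 401) after 48 h and 10.2 CPM (7.15 to 14.1) after 96 h. The arms therefore moved in opposite directions by 96 h. Relative to the starting library of the same arm, Cpa3 was 4.96-fold higher (4.62 to 5.33) at 48 h and 13.5-fold higher (12.6 to 14.4) at 96 h after CAF-1 depletion. After HOXA9 inactivation it was 1.28-fold lower (1.20 to 1.36) at 48 h, short of the 2-fold size used for calls, and 48.1-fold lower (34.6 to 68.8) at 96 h.

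Mcpt8 followed a steeper course of the same shape. The CAF-1 OFF libraries held 40.1 CPM (34.3 to 46.6), 373 CPM (357 to 390) and 1159 CPM (1131 to 1188) of it in order of time. The HOXA9 OFF libraries held 164 CPM (152 to 177), then 17.5 CPM (14.1 to 21.5), and at the end 0 UMIs, below a floor of 0.851 CPM that 3 counts of that library would give. The folds in CAF-1 OFF were 9.31 (7.95 to 10.95) and 28.9 (24.8 to 33.9). In HOXA9 OFF Mcpt8 was 9.39-fold lower (7.55 to 11.8) at 48 h and at least 193-fold lower at 96 h. The 48 h interval of Mcpt8 does not touch that of Cpa3 in either arm.

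**Figure D1:**
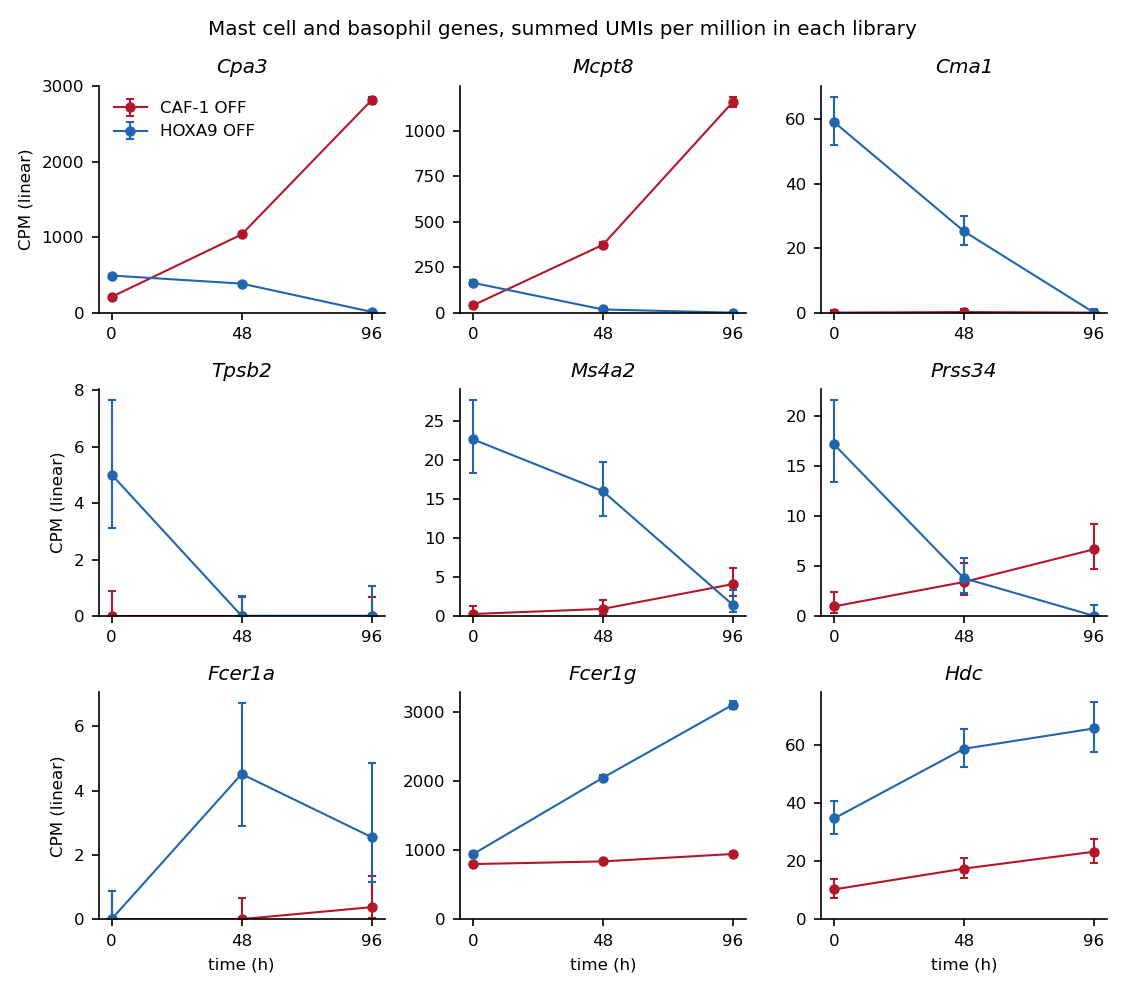
Level of each of the 9 genes (CPM of summed UMIs, vertical axis) at 0, 48 and 96 h (horizontal axis) in the CAF-1 OFF and HOXA9 OFF libraries, 1 library per point, with 95% Poisson intervals as bars. Cpa3 and Mcpt8 climb in CAF-1 OFF to 2813 and 1159 CPM and drop in HOXA9 OFF to 10.2 and 0 CPM, whereas Fcer1g climbs in HOXA9 OFF to 3105 CPM.

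The other mast cell and basophil proteases stayed near the detection limit in CAF-1 OFF. Cma1 had 0, 1 and 0 UMIs there in order of time, whereas the HOXA9 OFF libraries held 248 UMIs (59.2 CPM), 134 UMIs (25.2 CPM) and 0 UMIs. Tpsb2 was seen in 1 library alone, HOXA9 OFF at 0 h, with 21 UMIs (5.01 CPM, 3.10 to 7.66). Tpsab1, its close tandem relative, was at 0, and how counting divides reads between such relatives is uncertain. Prss34 had 4, 19 and 36 UMIs over the CAF-1 OFF course (0.949, 3.40 and 6.67 CPM). It had 72, 20 and 0 UMIs over the HOXA9 OFF course (17.2, 3.77 and 0 CPM). Its ratio in CAF-1 OFF was 3.58-fold (1.19 to 14.5) at 48 h and 7.03-fold (2.52 to 27.2) at 96 h, but 16 of the 19 UMIs at 48 h came from 1 cell. So the chymase and the tryptase were at 0 UMIs in the library where the carboxypeptidase transcript was most abundant.

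The chains of the IgE receptor did not move as a unit. Fcer1a, the IgE-binding chain, had 0, 0 and 2 UMIs over the CAF-1 OFF course, while the HOXA9 OFF libraries held 0, 24 and 9. Ms4a2, the beta chain, had 1, 5 and 22 UMIs over the CAF-1 OFF course (0.237, 0.895 and 4.08 CPM). The HOXA9 OFF libraries held 95, 85 and 5 (22.7, 16.0 and 1.42 CPM). From 1 UMI to 22 the ratio in CAF-1 OFF was 17.2 with an interval of 2.78 to 709, and in HOXA9 OFF the gene was 16.0-fold lower (6.61 to 50.3) at 96 h. Fcer1g, the shared gamma chain, was high everywhere, with 797, 835 and 943 CPM over the CAF-1 OFF course. The HOXA9 OFF libraries held 939, 2047 and 3105 CPM. Fcer1g was 1.05-fold (1.00 to 1.10) and 1.18-fold (1.13 to 1.24) its 0 h level in CAF-1 OFF, and 2.18-fold (2.10 to 2.26) and 3.31-fold (3.19 to 3.43) in HOXA9 OFF.

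Hdc, the histamine-forming enzyme, was low and increased in both arms without reaching the 2-fold size on the log2 scale. The CAF-1 OFF libraries held 10.2, 17.4 and 23.2 CPM of it, and those of HOXA9 OFF 34.6, 58.6 and 65.5 CPM. Plain ratios to the start were 1.70 (1.18 to 2.50) and 2.27 (1.59 to 3.29) after CAF-1 depletion. After estradiol washout they were 1.69 (1.39 to 2.08) and 1.89 (1.53 to 2.35). The ratio of 2.27 is a log2 difference of 0.72 once 10 CPM are added to both sides, an addition that damps low genes and decides each call below.

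Calls were counted over genes whose levels average 20 CPM or more, which 4 of the 9 genes reach (Cpa3, Mcpt8, Fcer1g and Hdc). Cpa3 and Mcpt8 were at least 2-fold higher in CAF-1 OFF at 48 h and 0 of the 4 were lower. Among all 4789 such genes, 2.76% were higher by that size and 0.0418% lower. At 96 h the same 2 were higher and 0 lower, beside 5.22% and 0.856% of all genes. After 48 h without estradiol, Fcer1g was higher and Mcpt8 lower, where 13% of all genes were higher and 19.6% lower. At 96 h Fcer1g was higher and Cpa3 and Mcpt8 lower, in a library where 18.1% of genes were higher and 39.8% lower, so that a decrease was a common course there. The median log2 ratio over the 9 genes was 0.09 and 0.46 after CAF-1 depletion, beside 0.00 and −0.08 over all genes counted. After washout it was −0.35 and −1.44, beside −0.23 and −0.56. The 5 genes under the minimum stay in that median, and the 10 CPM added keeps their ratios small.

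By 96 h most CAF-1 OFF cells held a UMI of Cpa3 and of Mcpt8. With every cell thinned to 1300 UMIs so that depth is equal, Cpa3 was seen in 17.7% (14.8 to 20.9) of cells at 0 h, 57.2% (53.9 to 60.5) at 48 h and 86.1% (83.7 to 88.3) at 96 h. Without thinning these were 45.3%, 82.3% and 94.6%. Mcpt8 was seen in 4.11%, 29.3% and 66.4% of thinned cells and in 21.0%, 63.2% and 92.1% of cells at full depth. The thinned HOXA9 OFF shares for Cpa3 were 26.1% (22.2 to 30.3), 13.3% (11.5 to 15.2) and 0.291%. Those for Mcpt8 were 12.7%, 0.799% and 0%, the last being 0 of 1376 cells, which allows up to 0.268%. Full-depth shares in HOXA9 OFF were 60.5%, 19.2% and 0.596% for Cpa3, and 47.6%, 2.35% and 0% for Mcpt8. Fcer1g was seen in 64.0%, 67.0% and 70.3% of thinned CAF-1 OFF cells and in 66.7%, 88.8% and 96.8% of thinned HOXA9 OFF cells, and Hdc in 0.948% to 8.14% across the libraries.

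**Figure D2:**
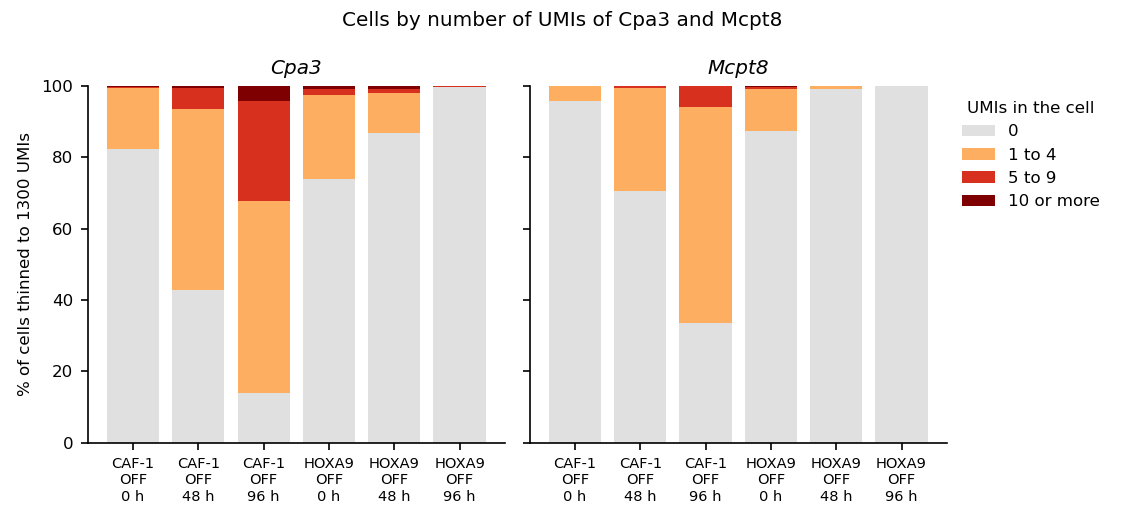
Percent of cells (vertical axis) with 0, 1 to 4, 5 to 9 and 10 or more UMIs of Cpa3 (left) and Mcpt8 (right) in each library, every cell thinned to 1300 UMIs. In CAF-1 OFF the share with at least 1 UMI of Cpa3 goes from 17.7% to 86.1% by 96 h, while in HOXA9 OFF it goes from 26.1% to 0.291%.

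The level within a cell shifted too. At 0 h in CAF-1 OFF, 521 thinned cells had 0 UMIs of Cpa3, 109 had 1 to 4, 2 had 5 to 9 and 1 had 10 or more. At 96 h these were 125, 486, 254 and 37 cells. The HOXA9 OFF cells at 48 h numbered 1193, 157, 13 and 13, so that cells with 10 or more UMIs were as many as those with 5 to 9.

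How evenly the transcripts were shared out set the arms apart. In CAF-1 OFF, 50% of all Cpa3 UMIs lay in 51 cells (7.88% of cells) at 0 h, 163 cells (17.6%) at 48 h and 231 cells (25.4%) at 96 h. In HOXA9 OFF, 22 cells (4.65%) held 50% of them at 0 h, 24 cells (1.71%) at 48 h and 2 cells at 96 h. The richest 1% of cells held 4.15% of Cpa3 UMIs in CAF-1 OFF at 96 h and 40.7% in HOXA9 OFF at 48 h. For Mcpt8, 190 cells held 50% of the UMIs in CAF-1 OFF at 96 h, whereas 12 did so in HOXA9 OFF at 0 h, and at 48 h 1 cell held 54 of the 93 UMIs. Such numbers depend on level as well as spread, because few UMIs can only lie in few cells. Variance over mean of the thinned counts, which is 1 for counts scattered at random, was 2.41, 2.42 and 2.47 for Cpa3 in CAF-1 OFF. It was 5.51 and 21.1 in HOXA9 OFF at 0 and 48 h, where the richest thinned cells held 22 and 99 UMIs. For Mcpt8 the measure stayed between 1.03 and 1.82 in CAF-1 OFF, against 11.0 and 19.0 in HOXA9 OFF at 0 and 48 h. The richest thinned cells there held 33 and 26 UMIs of Mcpt8. Single rich cells weigh heavily in the measure, which also depends on level. For Fcer1g it was between 1.06 and 1.63 in all 6 libraries. Fcer1g thus lay nearer to random scatter than Cpa3 in both arms, though above 1 in each library. At the value of 1.03, that of Mcpt8 in CAF-1 OFF at 0 h, 8.04% of cells still held 50% of the 169 UMIs.

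**Figure D3:**
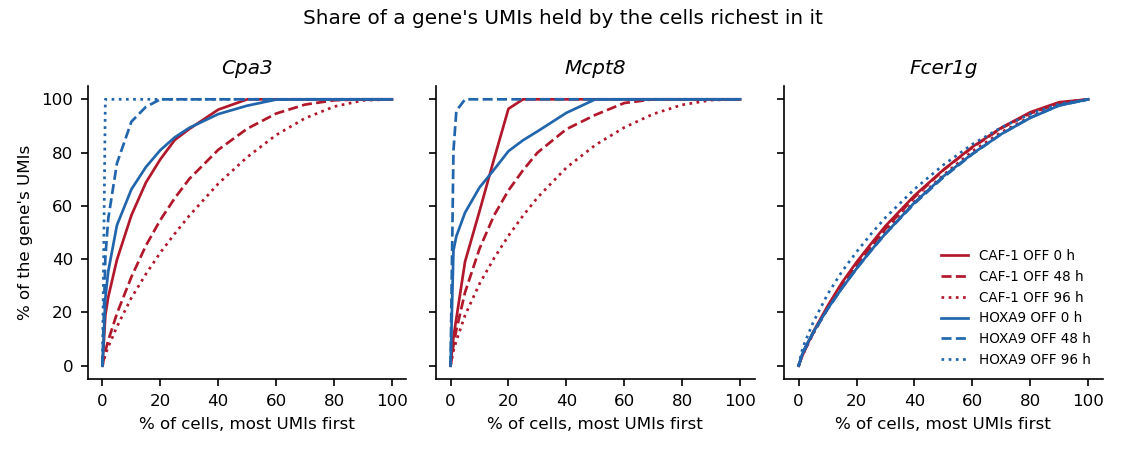
Percent of a gene's UMIs (vertical axis) held by the richest percent of cells (horizontal axis) for Cpa3, Mcpt8 and Fcer1g, 1 line per library with a UMI of the gene. The richest 10% of cells hold 25.5% of Cpa3 UMIs in CAF-1 OFF at 96 h and 91.6% in HOXA9 OFF at 48 h, while for Fcer1g they hold 21.3% to 26.8% in all libraries. These shares depend on the level of the gene as well as on its spread.

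Cpa3 and Mcpt8 were loosely coupled within CAF-1 OFF cells thinned to 1300 UMIs, and somewhat more so at greater depth. At 96 h Mcpt8 was seen in 54.4% of cells with 0 UMIs of Cpa3, 67.7% of those with 1 to 4, 70.5% with 5 to 9 and 62.2% with 10 or more. At 48 h mean Mcpt8 was 0.448 UMIs in cells without Cpa3, 0.466 with 1 to 4 and 0.769 with 5 to 9. The mean Mcpt8 count in cells with 1 to 4 Cpa3 UMIs was 1.26 times (1.05 to 1.51) that in cells with 0 at 96 h. At 48 h this ratio was 1.04 (0.848 to 1.28). With 2600 UMIs per cell it was 1.41 at 96 h and 1.13 at 48 h. With no thinning, by CPM of the cell, it was 1.51 and 1.16, and the 96 h value lay just past its interval at 1300 UMIs. For the HOXA9 OFF cells at 0 h that ratio was 4.68 (3.06 to 7.21), and 2.03 (1.18 to 3.45) without the 1 cell richest in Mcpt8, an alternative added after the data were seen. By share of cells the order there depended on depth, with Mcpt8 in 19.8% against 10.0% of cells at 1300 UMIs and in 14.5% against 19.7% at 2600 UMIs, where the Cpa3 ranges are scaled with depth. Elane, neutrophil elastase, went the other way from Cpa3 at 96 h in CAF-1 OFF, with a mean of 2.63, 2.17, 1.13 and 0.730 UMIs over the 4 ranges. Prg2, an eosinophil granule protein also made by mast cells and basophils, was seen in 7.20%, 6.79%, 10.6% and 27.0% of cells in these ranges. These cells also differ in other ways that were not tested.

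UMIs of both genes were also met in CAF-1 OFF cells rich in genes of other lineages. At 96 h, cells with 10 or more thinned UMIs of Pf4, platelet factor 4 of megakaryocytes, had Cpa3 in 41 of 46 (89.1%, 76.4 to 96.4) and Mcpt8 in 43 of 46 (93.5%, 82.1 to 98.6). They held a mean of 5.17 thinned UMIs of Cpa3, against 3.63 over all cells of that library. Prg2-rich cells had Cpa3 in 26 of 29 and Mcpt8 in 18 of 29. Elane-rich cells had Cpa3 in 13 of 16 and Mcpt8 in 8 of 16. Over all thinned cells of that library Cpa3 was in 86.1% and Mcpt8 in 66.4%. Only the interval for Mcpt8 in Pf4-rich cells lay clear of the library's share. At 48 h, 0 of 12 Elane-rich cells had Cpa3, which allows a share of up to 26.5%, beside 57.2% of all thinned cells of that library. The summed level of the megakaryocyte markers moved beside Cpa3 in this arm, from 45.8 to 500 and 2687 CPM with 5 of 6 genes detected each time, and that of early granulocyte markers from 6452 to 9053 and 12997 CPM. No kind of cell that should lack Cpa3 was at hand to give a background share from free RNA in this library, and what free RNA added to these shares was not tested. The part of such cells in the result was not tested beyond these counts.

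In HOXA9 OFF the remaining Cpa3 lay outside the maturing neutrophils. At 48 h, 0 of 235 cells rich in S100a8, a neutrophil calcium-binding protein, had a UMI of Cpa3. This allows a share of up to 1.56%, at a median of 2904 UMIs per cell. At 96 h it was 0 of 1182, which allows up to 0.312%. Neutrophils should lack Cpa3, so these shares give the background that free RNA left, in libraries with 384 and 10.2 CPM of Cpa3 in all. Of 224 Prg2-rich cells at 48 h, with a median of 3738.5 UMIs, 109 (48.7%, 41.9 to 55.4) had Cpa3 but 1 (0.446%) had Mcpt8. Hdc was in 19.6% of the Prg2-rich and 3.40% of the S100a8-rich cells, and Fcer1g in 83.0% and 90.6%. Over the HOXA9 OFF course eosinophil markers summed to 1481, 19339 and 3288 CPM and neutrophil markers to 23.6, 10186 and 138983 CPM. In a library, fewer cells of a type and less RNA per cell cannot be told apart from the summed level alone.

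In HOXA9 OFF at 0 and 48 h, a handful of cells combined several of the scarce genes and held more than their share of Cpa3. Cells with a UMI of at least 2 of Cma1, Tpsb2, Ms4a2, Prss34 and Fcer1a, a rule set after these values were seen, numbered 14 of 473 (2.96%, 1.63 to 4.92) in HOXA9 OFF at 0 h and 13 of 1404 (0.926%, 0.494 to 1.58) at 48 h. The other 4 libraries had 1, 0, 1 and 1 such cell, and the one in CAF-1 OFF at 0 h carries a barcode shared with another library. Scrublet marked 0 of them as doublets. That they held UMIs of these 5 genes follows from the rule and is not a result. The 14 cells held 3.04% of the library's UMIs but 36.7% of its Cpa3, 42.5% of its Mcpt8 and 53.1% of its Hdc. Of genes outside the rule, they also held 73.2% of Il1rl1, the IL-33 receptor of mast cells and basophils, and 59.3% of Cd200r3, a basophil and mast cell surface receptor. At 48 h the 13 cells held 1.00% of the library's UMIs, 20.4% of its Cpa3, 66.7% of its Mcpt8, 63.6% of its Il1rl1 and 22.7% of its Cd200r3, but 4.50% of its Hdc. Of their 62 Mcpt8 UMIs, 54 lay in 1 cell.

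Levels in those cells stood far from the rest of the same library. Before washout, Cpa3 was at 5923 CPM in the 14 cells and 320 CPM in the other 459, Mcpt8 at 2299 against 97.5 CPM and Hdc at 604 against 16.7 CPM. The 293 Mcpt8 UMIs behind the 2299 CPM lay in 7 of the 14 cells, with 119, 63, 61 and 37 in the richest. Gata2 was at 220 against 29.0 CPM and Il1rl1 at 235 against 2.71 CPM. Mpo, myeloperoxidase, was lower in them, at 86.3 against 1006 CPM, and Elane was at 0 against 49.7 CPM. Kit lay close, at 94.1 against 80.5 CPM. Prg2 was at 871 against 876 CPM, but it was seen in 10 of the 14 cells and in 92 of the other 459. Of the 111 Prg2 UMIs in the 14 cells, 62 lay in 1 cell. Prg3, a related eosinophil granule protein, was at 3695 against 496 CPM. At 48 h Cpa3 was at 7814 CPM in the 13 cells and 309 CPM in the rest, Mcpt8 at 1162 against 5.90 CPM, Hdc at 262 against 56.5 CPM and Gata2 at 600 against 17.5 CPM. Cd200r3 was at 956 against 33.1 CPM, whereas Prg2 was lower, at 2024 against 16777 CPM, as was Prg3, at 618 against 2542 CPM. The 62 Mcpt8 UMIs of the 13 cells lay in 4 of them. A single cell held 54 of these and 192 of the group's 417 Cpa3 UMIs. Median depth was alike within each library, at 8936 against 8651 UMIs per cell at 0 h and 3930 against 3533 at 48 h.

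**Figure D4:**
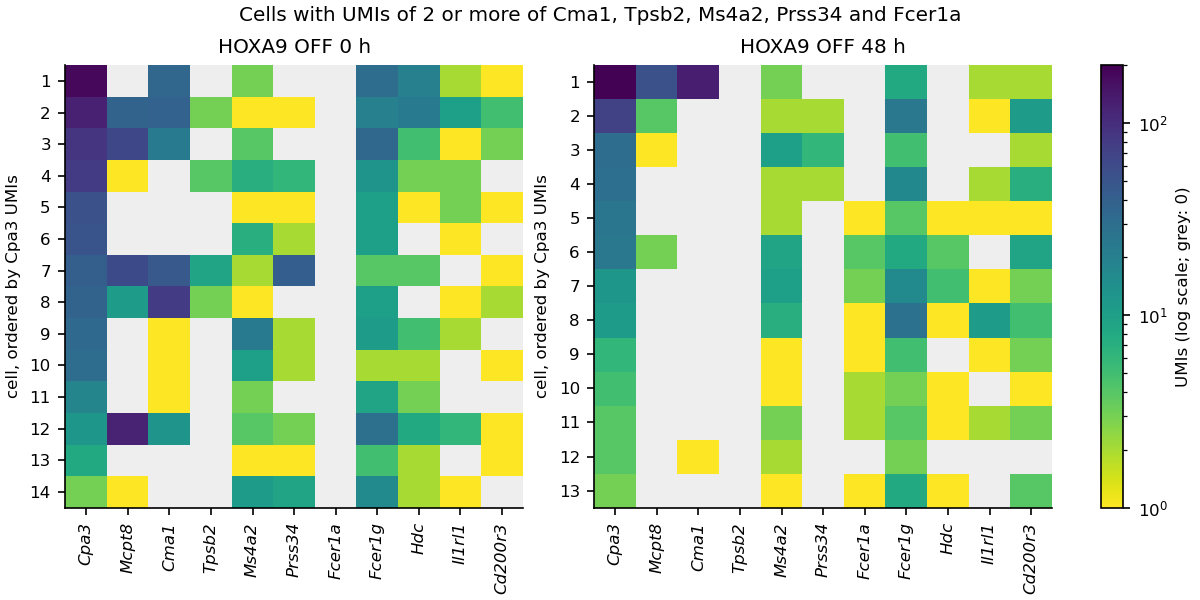
UMIs (colour, log scale, grey for 0) of the 9 genes with Il1rl1 and Cd200r3 (columns) in the 14 cells of HOXA9 OFF at 0 h and the 13 cells at 48 h that hold at least 2 of Cma1, Tpsb2, Ms4a2, Prss34 and Fcer1a (rows, ordered by Cpa3). All 27 hold Cpa3, Mcpt8 is in 7 of 14 and 4 of 13, and Fcer1a is in 0 of 14 and 8 of 13.

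No single profile described these cells. At 0 h the cell richest in Cpa3 held 180 UMIs of it with 35 of Cma1 and 0 of Mcpt8. Another held 119 UMIs of Mcpt8 with 12 of Cpa3 and 13 of Cma1. A small one of 1280 UMIs in total held 40 of Cpa3, 61 of Mcpt8, 46 of Cma1, 9 of Tpsb2 and 41 of Prss34, so that transcripts typed to mast cells and to basophils lay in 1 barcode. A further cell held 22 UMIs of Ms4a2 with 33 of Cpa3, 1 of Cma1 and 0 of Mcpt8. At 48 h the cell with most Cpa3 (192 UMIs) held 128 of the library's 134 Cma1 UMIs and 54 of its 93 Mcpt8 UMIs. Fcer1a was present in 13 cells of that library, all 13 with Cpa3 and 8 with Ms4a2, so that both IgE receptor chains were met in the same cell there and in 1 cell at 96 h. In CAF-1 OFF at 96 h the 22 Ms4a2 UMIs lay in 21 cells, all of which held Cpa3 and 20 of which held Mcpt8, and 0 of the 21 held Fcer1a.

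The uninduced libraries differed in these genes before any treatment. At 0 h Cpa3 was 2.35-fold (2.17 to 2.55), Mcpt8 4.10-fold (3.46 to 4.88) and Hdc 3.39-fold (2.40 to 4.88) higher in the HOXA9 OFF arm. These 3 of 4 genes passed the 2-fold size and 0 were lower, where 0.752% of all genes were higher by that size and 0.146% lower. Fcer1g was 1.18-fold higher (1.13 to 1.23). Cma1 was at least 83.1-fold higher, Tpsb2 at least 7.04-fold, and Prss34 18.1-fold (6.77 to 68.2), while Ms4a2 at 95 against 1 UMI gives 95.6-fold with an interval of 16.7 to 3813. The median log2 ratio over the 9 genes was 1.19, against −0.04 over all genes. Without the cells with at least 2 scarce genes, an alternative added after the data were seen, Mcpt8 alone passed, at 2.43-fold, while Cpa3 was at 320 against 208 CPM (1.54-fold) and Hdc at 16.7 against 9.98 CPM (1.68-fold). Barcodes removed for mitochondrial content were 66.2% in the HOXA9 OFF and 41.7% in the CAF-1 OFF library before induction, and with these barcodes kept the same 3 genes passed the size. In the removed barcodes Ms4a2 was at 22.3 CPM (13.6 to 34.4) in HOXA9 OFF and 11.0 CPM (4.04 to 23.9) in CAF-1 OFF. Its 95.6-fold ratio is therefore one of kept cells only.

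**Figure D5:**
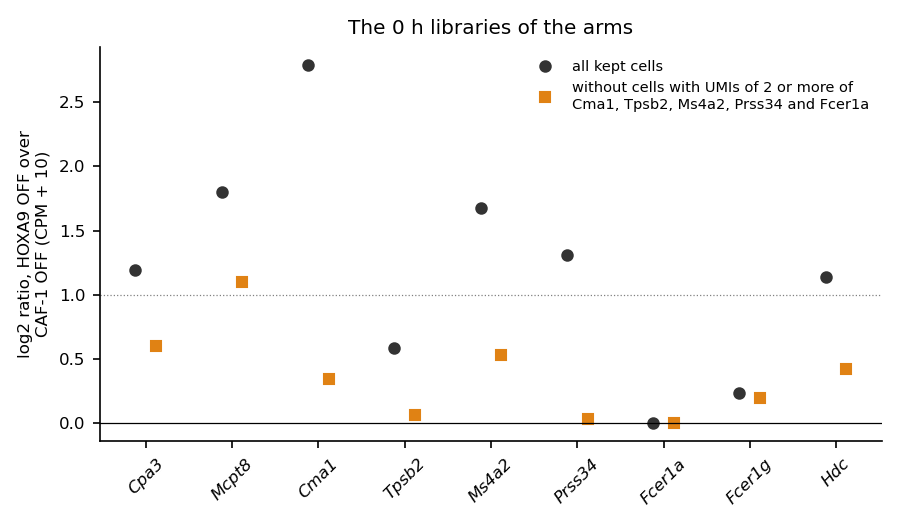
Log2 ratio of each gene (vertical axis, HOXA9 OFF over CAF-1 OFF at 0 h, 10 CPM added to both) with all kept cells (circles) and without the cells that hold at least 2 of the 5 scarce genes (squares), the dotted line marking the 2-fold size. Without those cells the ratio goes from 1.19 to 0.60 for Cpa3, from 1.14 to 0.42 for Hdc and from 1.80 to 1.10 for Mcpt8, which alone stays over the line. Any drop of the 5 scarce genes themselves follows from the rule, which was set after the values were seen.

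The starting library therefore bears on the later folds. Measured from the 0 h library of the other arm, Cpa3 in CAF-1 OFF was 2.11-fold and 5.73-fold higher at 48 and 96 h and Mcpt8 2.27-fold and 7.05-fold, so both still passed the size. Likewise in HOXA9 OFF at 48 h, Cpa3 turned from 1.28-fold lower to 1.84-fold higher and Mcpt8 was 2.29-fold lower, which is a log2 ratio of −0.86 and no longer a call. Hdc in CAF-1 OFF turned to log2 ratios of −0.71 and −0.43, and in HOXA9 OFF it became a call at both times, at 5.74-fold and 6.42-fold higher. Without the cells with at least 2 scarce genes, Hdc passed the size in HOXA9 OFF, at 3.38-fold higher after 48 h and 3.92-fold after 96 h, and Cpa3 at 48 h was 1.04-fold lower.

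Other genes of mast cell and basophil biology were counted in lists set by role, and those named are mainly the members with the largest change by 96 h. The counts stand beside shares of all genes of 2.76% and 5.22% higher at 48 and 96 h after CAF-1 depletion. After washout these shares were 13% higher and 19.6% lower at 48 h, and 18.1% higher and 39.8% lower at 96 h. Of 12 further granule proteases, 2 passed the minimum. Prss57, a neutral serine protease of myeloid granules, measured 5.93, 33.3 and 51.9 CPM over the CAF-1 OFF course, a call at both times. Over the HOXA9 OFF course Prss57 measured 16.9, 125 and 8.51 CPM, a call at 48 h. Ctsg, cathepsin G, measured 3472, 4131 and 5951 CPM over the CAF-1 OFF course and passed the size downwards in HOXA9 OFF, from 3309 to 833 and 11.6 CPM. Mcpt1, Mcpt4 and Gzmb had 0 UMIs in every library, and Mcpt2 had 1 UMI over all 6.

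Among 13 genes of IgE receptor signalling, 8 passed the minimum and 0 of 8 were called in CAF-1 OFF at either time, beside 2.76% and 5.22% of all genes higher. In HOXA9 OFF, 2 were higher at 48 h (Lyn and Lcp2), beside 13% of all genes, and at 96 h 3 were higher (Lyn, Syk and Lcp2) and 1 lower (Lat2), beside 18.1% and 39.8% of all genes. The kinase gene Lyn went from 25.8 to 87.8 and 209 CPM and Syk from 12.6 to 25.2 and 57.6 CPM. The adaptor gene Lcp2 went from 2.63 to 42.2 and 54.5 CPM, and Lat2, another adaptor, from 173 to 161 and 65.8 CPM. These kinases and adaptors serve many myeloid receptors besides that for IgE.

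Of 19 mediator and granule matrix genes, 8 passed the minimum. In CAF-1 OFF, 1 was higher at 48 h (Ccl3) and 3 at 96 h (Ccl3 and Alox5ap among them), with 0 lower. In HOXA9 OFF, 5 were higher at 48 h, and 4 were higher and 2 lower (Slc18a2 and Srgn) at 96 h, beside 13% of all genes higher at 48 h and 18.1% higher and 39.8% lower at 96 h. Alox5ap, which activates leukotriene synthesis, measured 225, 372 and 600 CPM over the CAF-1 OFF course. The HOXA9 OFF libraries held 182, 2001 and 2806 CPM of it. For the chemokine gene Ccl3 the corresponding levels were 11.2, 59.8 and 81.0 CPM, then 19.1, 262 and 1016 CPM. The chemokine gene Ccl4 was under the minimum, at up to 79.7 CPM in HOXA9 OFF at 96 h.

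Of 17 surface receptors, 5 passed the minimum. Csf2rb, the common beta chain for IL-3, IL-5 and GM-CSF, and Cd200r4 were called higher at both times in CAF-1 OFF, Csf2rb at 10.7, 54.7 and 112 CPM and Cd200r4 at 33.9, 85.5 and 201 CPM. In HOXA9 OFF Csf2rb was also higher at both times, from 27.0 to 95.3 and 102 CPM. Crlf2 was higher there at 96 h, at 295 CPM from 112 CPM at 0 h. Of all genes in that arm, 13% were higher and 19.6% lower at 48 h, and 18.1% higher and 39.8% lower at 96 h. Kit, the SCF receptor on which mast cells depend, measured 82.8, 73.9 and 55.6 CPM over the CAF-1 OFF course and was lower by the size in HOXA9 OFF, at 80.9, 9.98 and 1.13 CPM. Cd69, an activation antigen, was also lower there, at 153, 26.9 and 20.1 CPM.

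Of 14 transcription factors, 8 passed the minimum, and Gfi1, a transcriptional repressor that neutrophil development needs, was the 1 call in CAF-1 OFF, at 27.8, 86.2 and 146 CPM. In HOXA9 OFF, 3 were higher at 48 h (Runx1, Spi1 and Irf8), beside 13% of all genes, and at 96 h 2 were higher (Spi1 and Lmo4) and 2 lower (Gata2 and Gfi1), beside 18.1% and 39.8% of all genes. Spi1, which encodes PU.1, went from 154 to 814 and 1049 CPM, Lmo4 from 78.3 to 131 and 335 CPM and Irf8 from 10.7 to 54.8 and 23.8 CPM. Gata2, the factor of mast cell and basophil precursors, measured 27.0, 38.8 and 43.9 CPM over the CAF-1 OFF course, short of the size. Over the HOXA9 OFF course it measured 34.8, 23.4 and 5.39 CPM. Between the 0 h libraries, 0 genes of these 5 lists were called, beside 0.752% of all genes higher and 0.146% lower. List genes under the minimum, Il1rl1 among them, had no part in this count.

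Over the 6 libraries, the genes split into pairs by pattern. The measure was the root mean square distance between log2 levels, each centred on its own mean, and it is a description over 6 points. Cpa3 and Mcpt8 lay 0.94 apart and Fcer1g and Hdc 0.32 apart, while the 4 distances across the pairs were 2.62 to 2.93. The nearest genes to Cpa3 were H1fx, Mpo, Nkg7, Mzb1 and Mcpt8 (distances of 0.89 to 0.94), and those to Mcpt8 were H1fx, Nkg7, Car2, Cpa3 and Rab38 (0.74 to 0.96). Fcer1g was nearest to Rnf167, Apobr, Ccdc71l, Snx10 and Coro1a (0.07 to 0.10), and Hdc to Rragc, Taf10, Sft2d1, Ncor1 and 2510039O18Rik (0.15 to 0.21). With a pseudocount of 1 or 50 CPM, 1 and 0 of the 5 neighbours of Fcer1g stayed among its nearest 5, whereas 4 and 5 did for Mcpt8, 2 and 4 for Cpa3 and 3 and 3 for Hdc.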

How the data were processed

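Per the labels and the study's methods, the authors prepared 10x Chromium 3′ v2 libraries of sorted live cells and aligned reads to GRCm38/mm10 with Cell Ranger. The submitters' processing notes name version 3.0.1, with Seurat 3.0.1 and Scanpy 1.4.6. They deposited raw UMI counts per gene and barcode, 7821 barcodes by 27998 genes, with 1 library per group. The study's limits of 200 to 6000 genes and at most 10% mitochondrial UMIs kept 5872 cells and removed 1949 barcodes. Counts were summed per library and divided by its total (CPM). CPM have exact Poisson and folds and shares exact binomial (Clopper-Pearson) intervals at 95%, for counting error only. Log2 ratios add 10 CPM to both sides, calls need 2-fold and a mean of at least 20 CPM, and a library at 0 is set to a floor of 3 counts. Cells are not replicates, so no test between groups was made. Cells under 1300 UMIs were left out where cells were thinned. Doublets were not removed. Scrublet (in Scanpy 1.11.5) called 125 of 5872 cells, and an alternative leaves them out. Named genes are the 9 members, up to 4 genes per role list with at least 50 CPM in 1 library and the largest 96 h log2 ratio, the 5 nearest genes by pattern, and the marker lists. The cells rich in scarce genes, the S100a8-, Prg2-, Elane- and Pf4-rich cells and the other genes of up to 5 calls were chosen after their values were seen. Members and lists were chosen with earlier results of these data known. Gene positions (9 of 9 matched) and promoters (8 of 9) come from RefSeq tables of GRCm38.p6. 1 gene of the mediator list is not reported here. The calls were tested on simulated data. Python 3.11.15, NumPy 2.4.6, SciPy 1.17.1 and edgeR 4.0.16 (TMM factors as an alternative scaling only) were used. Alternatives cover filters, scaling, pseudocounts, thinning depth and left-out cells.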

Additional observations from a re-analysis of the deposited data

Results flagged for a closer look

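3 differences were marked because the arms went opposite ways from 0 h, with 1 library on each side, so the difference was not tested. At 48 h the log2 ratio of Mcpt8 was 2.94 after CAF-1 depletion and −2.66 after estradiol washout, 5.60 apart. At 96 h Cpa3 had 3.69 and −4.63, which are 8.32 apart, and Mcpt8 had 4.54 and −4.12, which are 8.67 apart.

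5 values come from barcodes that the comparisons reported left out and that 1 alternative, with no mitochondrial filter, brought back. In HOXA9 OFF at 0 h, 927 barcodes (median 717 UMIs) were removed for their mitochondrial share, and in them Cpa3 was at 501 CPM, against 214 CPM in the removed barcodes of CAF-1 OFF at 0 h. Mcpt8 was at 84.7 CPM against 38.5 CPM. Cma1 was at 83.6 CPM, Tpsb2 at 65.8 CPM and Prss34 at 84.7 CPM, each against 0 UMIs in 463 removed CAF-1 OFF barcodes. Tpsb2 had 59 UMIs in 6 of these removed barcodes, more than the 21 UMIs in all kept cells. 5 removed barcodes there held at least 2 of Cma1, Tpsb2, Ms4a2, Prss34 and Fcer1a.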

How the results depend on the processing

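Under alternatives, 69 counts of called genes stayed within 1.5 times the value reported and 5 did not. This compares how many genes were called and not which ones. In HOXA9 OFF at 48 h, the 0 h library of the other arm left the count at 2, with Mcpt8 lost and Hdc gained. Of the log2 ratios, 389 stayed inside the counting interval of the value reported and 187 moved out of it, and none of those called changed sign. With a 4-fold size the count was 1 in HOXA9 OFF at 48 h and 0 between the 0 h libraries. With no minimum level it was 6 in HOXA9 OFF at 96 h and 6 between the 0 h libraries. Without cells that hold at least 2 scarce genes it was 1 between the 0 h libraries. The share of CAF-1 OFF cells with Cpa3 at 0 h was 26.7% at 2600 UMIs, 45.3% with no thinning and 4.74% when at least 2 UMIs were asked for, and at 96 h it was 92.8%, 94.6% and 73.2%. The cause is the depth or count that each alternative sets. In HOXA9 OFF at 48 and 96 h the median of all genes moved by 0.25 and 0.38 (log2) with TMM factors, by 0.20 and 0.44 with median-of-ratios factors and by 0.12 and 0.12 with no mitochondrial filter, and at 96 h by −0.37 when mitochondrial and ribosomal protein genes were left out of the total. Of the 5 genes nearest by pattern, 0 (Fcer1g) to 5 (Mcpt8) stayed with a pseudocount of 50 CPM. No paired analysis was possible because each group has 1 library. Genes under about 5 CPM rest on few UMIs and often 1 cell.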
